A study of Mus musculus with 16 samples.

Results

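The genes described here are the 10 that make and load MHC class II molecules: the chain genes H2-Aa, H2-Ab1 and H2-Eb1, the chaperone gene Cd74, the regulator gene Ciita, and the peptide-editing genes H2-DMa, H2-DMb1, H2-DMb2, H2-Oa and H2-Ob. They were taken by symbol, and all 10 were found among the 30819 genes of the expression matrix. All 10 also passed the filter on low values (a linear value of at least 10 in at least 4 libraries) in every comparison below. RNA was sequenced from macrophages and monocytes sorted from MN/MCA1 tumours, a transplantable mouse fibrosarcoma, 21 days after the cells were placed under the skin of C57BL/6J mice that were wild type or C3-/-. C3 is the complement protein on which the activation cascades converge. The labels give neither the allele of C3 nor the age of the mice. The 4 groups held 4 libraries each: wild-type macrophages and monocytes from mice 1 to 4, and C3-/- macrophages and monocytes from mice 6 to 9. All cells were CD45+, CD11b+, Ly6G- and CD11c-. Macrophages were F4/80+ and Ly6C-, and monocytes were Ly6C+ and F4/80-.

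MHC class II molecules display peptides from proteins taken up by a cell to CD4+ T cells. An alpha and a beta chain pair in the endoplasmic reticulum with the invariant chain, the product of Cd74, which fills the groove and guides the complex to endosomes. There proteases trim the invariant chain to a fragment called CLIP, H2-DM exchanges CLIP for peptide, and H2-O holds H2-DM back. Ciita is the coactivator without which these genes are barely transcribed. It does not bind DNA itself but joins RFX, CREB and NF-Y proteins already placed on short promoter elements called the X and Y boxes. In C57BL/6 mice the E alpha gene is defective, so that H2-Eb1 RNA is made although no E dimer reaches the cell surface.

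The members other than Ciita and Cd74 lie together on chromosome 17 (GRCm38, 34092340 to 34316674, from H2-Oa to H2-Eb1). Ciita lies on chromosome 16 (10480059 to 10528418). C3 itself lies on chromosome 17 too (57203970 to 57228136). The promoter stretches below are shown because the same Y box letters recur in them. Whether these letters bear on the RNA differences was not tested. They come from RefSeq (GRCm38.p6) and run from 60 bases before the Y core to 10 bases after it, on the strand of the gene. Capitals mark the Y core GATTGG and, where its letters were found, in front of it the X core ATGATG. The letters searched for were chosen with the windows of the members in view. The stretches lie at chr17:34287857-34287932 (H2-Aa, minus strand), chr17:34305747-34305822 (H2-Eb1), chr17:34153069-34153144 (H2-DMb1), chr17:34145098-34145173 (H2-DMb2), chr17:34092275-34092350 (H2-Oa) and chr17:34238787-34238862 (H2-Ob), the last 5 on the plus strand.
H2-Aa: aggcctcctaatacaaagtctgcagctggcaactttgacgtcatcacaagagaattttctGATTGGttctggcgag
H2-Eb1: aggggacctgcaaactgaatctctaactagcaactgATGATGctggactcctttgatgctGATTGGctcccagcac
H2-DMb1: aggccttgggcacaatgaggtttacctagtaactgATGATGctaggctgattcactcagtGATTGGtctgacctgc
H2-DMb2: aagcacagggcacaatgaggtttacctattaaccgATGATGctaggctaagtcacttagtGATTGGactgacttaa
H2-Oa: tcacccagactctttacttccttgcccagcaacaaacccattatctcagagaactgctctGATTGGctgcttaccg
H2-Ob: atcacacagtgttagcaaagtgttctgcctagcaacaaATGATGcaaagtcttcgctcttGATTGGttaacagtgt

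RefSeq windows of 300 bases (250 before a gene's start and 50 after) were at hand for 7 of the 10 members, 8 windows in all. The Y core, on either strand, was found in the windows of all 7 of these members and in 16.1% of all 32851 windows. The X core, on either strand, was found in 4 of the 7 members and in 11.2% of all windows. An X core followed on the gene's strand by a Y core 5 to 30 bases on was found in 17 windows of the whole table (0.0517%), of which 4 were those of H2-Eb1, H2-DMb1, H2-DMb2 and H2-Ob. The gap between the cores was 18 bases in H2-Eb1, 19 in H2-DMb1 and H2-DMb2, and 16 in H2-Ob. The cores do not overlap each other. H2-DMa has a pair of windows, and in the 1 that held the Y core it lay 199 bases before the start. Such matches describe letters, not binding. Because the letters were chosen with the members' windows in view, the shares cannot test whether the members are enriched for them.

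The libraries held 18689453 to 29049353 reads recovered from the deposited log2 values, and values below are normalized reads (recovered reads divided by the library's size factor) unless another scale is named. C3 itself was lower in every C3-/- library than in any wild-type library of the same cell type. Its mean was 4008 ± 858 in wild-type and 1234 ± 168 in C3-/- macrophages, and 15158 ± 718 against 4925 ± 288 in monocytes (SD, n = 4). Gene-level values cannot tell which exons the remaining C3 reads came from. Of 8 monocyte markers, all 8 were lower in macrophages than in monocytes in both genotypes, and of 9 macrophage markers 8 in wild type and 7 in C3-/- were higher in macrophages. In bulk RNA of a sorted population, fewer cells of a type and less RNA per cell cannot be told apart.

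The 10 genes together took a larger share of the reads in C3-/- than in wild-type mice. In wild-type macrophages they held 2.61% ± 0.200 of all reads and in C3-/- macrophages 6.39% ± 0.449 (SD, n = 4). In monocytes the shares were 0.390% ± 0.0887 and 2.73% ± 0.620. The lowest C3-/- library was above the highest wild-type library in each cell type (5.95% against 2.79% in macrophages, 1.99% against 0.462% in monocytes).

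**Figure D1:**
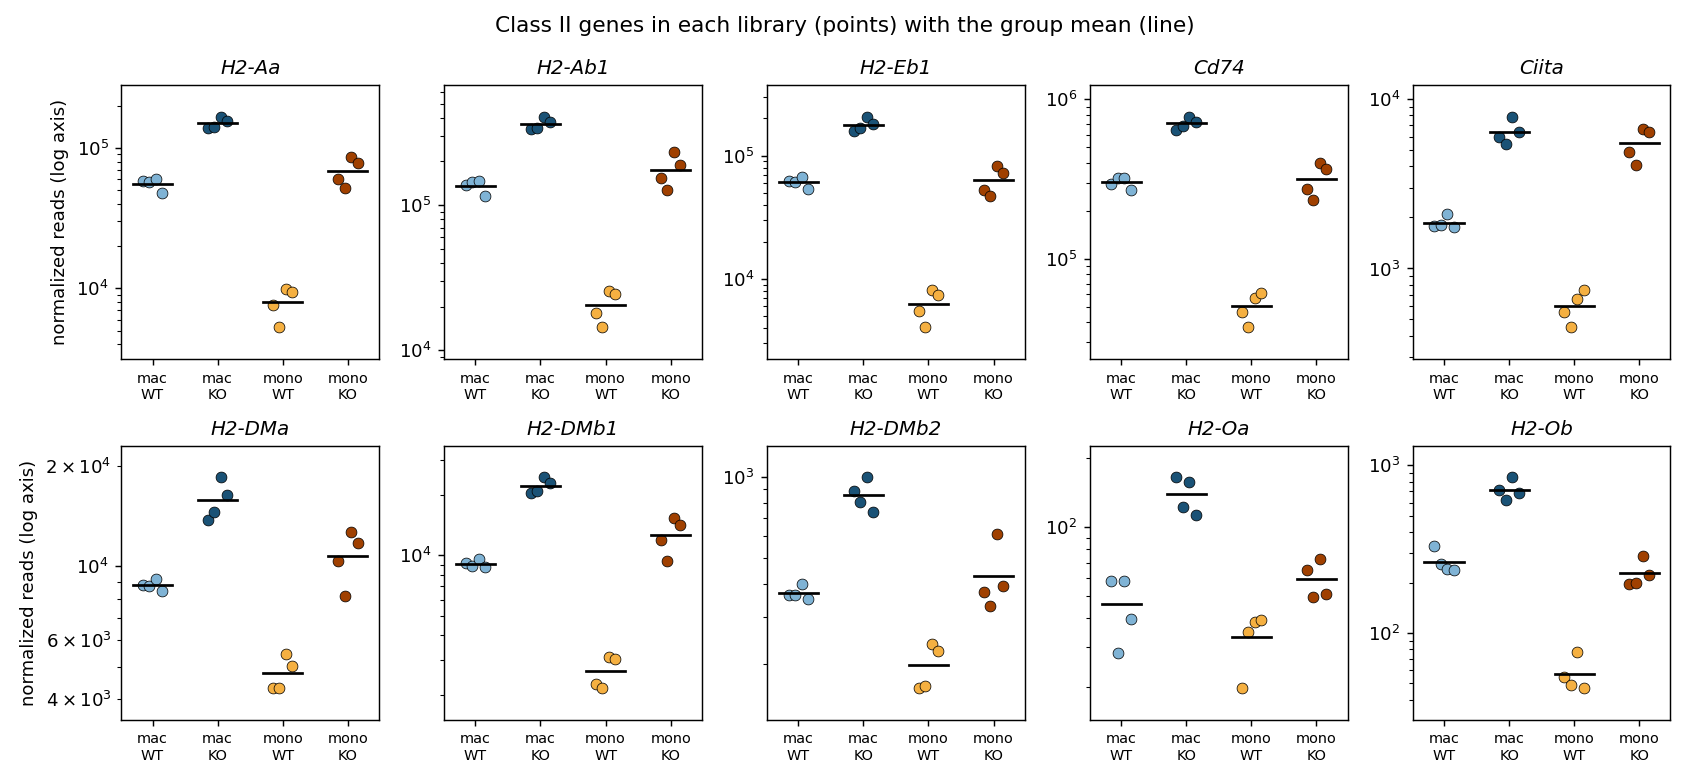
Normalized reads of the 10 class II genes in each library (log axis), with a panel per gene, points for the 4 libraries of a group and a line at the group mean; mac and mono are macrophages and monocytes, WT wild type and KO C3-/-. For H2-Aa the C3-/- macrophages lie between 138273 and 167442 and the wild-type monocytes between 5275 and 9860, and in all 10 panels no C3-/- point reaches down to a wild-type point of the same cell type.

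Chain genes. H2-Aa encodes the A alpha chain and H2-Ab1 its A beta partner. H2-Aa was read at 57805, 56878, 60583 and 48072 in wild-type macrophages of mice 1 to 4, and at 138273, 141962, 167442 and 155667 in C3-/- macrophages of mice 6 to 9. In monocytes it was at 7562, 5275, 9860 and 9356 in wild type and at 60216, 51720, 85777 and 77586 in C3-/-. Every C3-/- library was above every wild-type library of its cell type, and C3-/- monocytes overlapped wild-type macrophages. The mean was 2.70-fold higher in C3-/- macrophages and 8.59-fold higher in C3-/- monocytes. H2-Ab1 was higher by 2.65-fold and 8.49-fold (136264 ± 13851 to 361591 ± 34781 in macrophages, 20573 ± 5339 to 174753 ± 45885 in monocytes). H2-Eb1, the E beta chain gene, was higher by 2.92-fold in macrophages (60787 ± 5342 to 177319 ± 21898) and by 10.1-fold in monocytes (6281 ± 1877 to 63349 ± 16408). The defective partner gene H2-Ea-ps was at 0 in every wild-type and at 0.819 to 3.68 in C3-/- macrophages, and at 0 to 1.88 and 0 to 1.93 in monocytes. H2-Eb2, a further beta chain gene beside it, was at 0 to 0.950 in wild-type and 3.18 to 7.09 in C3-/- macrophages, without overlap, and at 0 to 1.88 and 0.812 to 4.82 in monocytes. Neither was tested, since both fell under the filter on low values.

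Invariant chain. Cd74, which lies on chromosome 18, was the most abundant member. It was read at 295923, 319352, 320746 and 269367 in wild-type macrophages and at 638741, 682396, 779093 and 724811 in C3-/- macrophages. In monocytes it was at 46733, 37177, 57215 and 60789 in wild type and at 275031, 232267, 400397 and 366049 in C3-/-. The means differed by 2.34-fold in macrophages and 6.31-fold in monocytes, with no overlap between genotypes. Per kilobase of transcript, the order in wild-type macrophages was Cd74 (246199 ± 19747), H2-Ab1 (112429 ± 11429), H2-Eb1 (51910 ± 4562) and H2-Aa (49499 ± 4795), and the last 2 overlapped.

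Regulator. Ciita was read at 1778, 1810, 2105 and 1745 in wild-type macrophages and at 5962, 5440, 7876 and 6389 in C3-/- macrophages. In monocytes it was at 555, 449, 662 and 745 in wild type and at 4880, 4083, 6642 and 6403 in C3-/-. Genotypes did not overlap in either cell type, while C3-/- macrophages and C3-/- monocytes did. The mean was higher in C3-/- by 3.45-fold in macrophages and by 9.13-fold in monocytes. Per kilobase, Ciita stood at 310 ± 27.6 in wild-type macrophages against 49499 ± 4795 for H2-Aa. The gene has several promoters, and gene-level values cannot tell which of them was used.

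Peptide editing. H2-DMa encodes the alpha chain of H2-DM, and H2-DMb1 and H2-DMb2 its beta chains. H2-DMa was read at 8796, 8733, 9189 and 8415 in wild-type macrophages and at 13818, 14521, 18508 and 16380 in C3-/- macrophages. In monocytes it was at 4309, 4322, 5475 and 5026 in wild type and at 10400, 8136, 12692 and 11774 in C3-/-. Its means differed by 1.80-fold in macrophages and 2.25-fold in monocytes, without overlap. H2-DMb1 was higher by 2.45-fold in macrophages (9076 ± 389 to 22267 ± 1844) and by 4.79-fold in monocytes (2654 ± 495 to 12706 ± 2604). H2-DMb2 was far lower in level and was higher by 2.33-fold (369 ± 21.1 to 858 ± 111) and 2.16-fold (198 ± 39.3 to 427 ± 126). The main transcripts of H2-DMb1 and H2-DMb2 were 88.0% identical over 1264 aligned positions, with an identical run of 221 bases, so that the split of reads between them is uncertain. Of the exon bases of H2-DMa, 10.4% overlap Brd2 on the opposite strand (mean 5479 normalized reads), and the library kit does not mark strand.

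H2-Oa and H2-Ob encode the chains of H2-O and were the least abundant members per kilobase in wild-type macrophages. H2-Ob was read at 328, 258, 240 and 237 in wild-type macrophages and at 711, 619, 848 and 686 in C3-/- macrophages. In monocytes it was at 54.3, 48.8, 77.0 and 46.9 in wild type and at 196, 199, 289 and 223 in C3-/-. The C3-/- libraries were above the wild-type libraries in each cell type, by 2.69-fold and 4.00-fold in the mean. H2-Oa was at 58.0, 28.1, 58.2 and 39.7 in wild-type and 165, 123, 157 and 113 in C3-/- macrophages, a difference of 3.03-fold. In monocytes it was at 19.8, 34.7, 38.5 and 39.2 against 64.8, 49.4, 72.4 and 51.2, a difference of 1.80-fold that did not pass the test below. An antisense gene, BC051537, shares 22.8% of the exon bases of H2-Oa and had a mean of 1.13 normalized reads.

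Whether these genes differed between C3-/- and wild-type mice was tested in each cell type with limma on the deposited log2 values. Benjamini-Hochberg adjusted p-values were taken over all genes tested. The allele is not given and C3 shares a chromosome with most members. Loss of C3 and other DNA differences between the genotypes therefore cannot be told apart. The deposited scale draws values together, so differences on it are smaller than the folds above. In macrophages all 10 members rose, against 2.57% of 12568 genes called higher in C3-/-. Their median difference was 1.06 (0.61 for H2-DMa to 1.30 for Ciita), against 0.00 over all genes tested. H2-DMb1 had the smallest adjusted p (0.96 ± 0.05 SE, limma adjusted p = 3.16e-07) and H2-Oa the largest (1.10 ± 0.16 SE, limma adjusted p = 0.00153). For all 10 members no C3-/- library overlapped a wild-type library, against 6.05% of genes without overlap and higher in C3-/-.

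In monocytes 9 of 10 members rose, against 1.40% of 12867 genes called higher in C3-/-. The median difference was 1.66 (0.52 to 2.19), against -0.01 over all genes. Ciita differed most (2.19 ± 0.13 SE, limma adjusted p = 4.30e-06), followed by H2-Eb1 (2.18 ± 0.15 SE, limma adjusted p = 2.49e-05). H2-DMb2 was 0.74 ± 0.14 SE higher (limma adjusted p = 0.0130). H2-Oa differed by 0.52 ± 0.16 SE, which did not pass (limma adjusted p = 0.106). The authors' deposited table gives it a difference of 0.84 in log2 reads, with an adjusted p of 0.0247. No member's genotypes overlapped, against 4.98% of genes without overlap and higher in C3-/-.

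**Figure D2:**
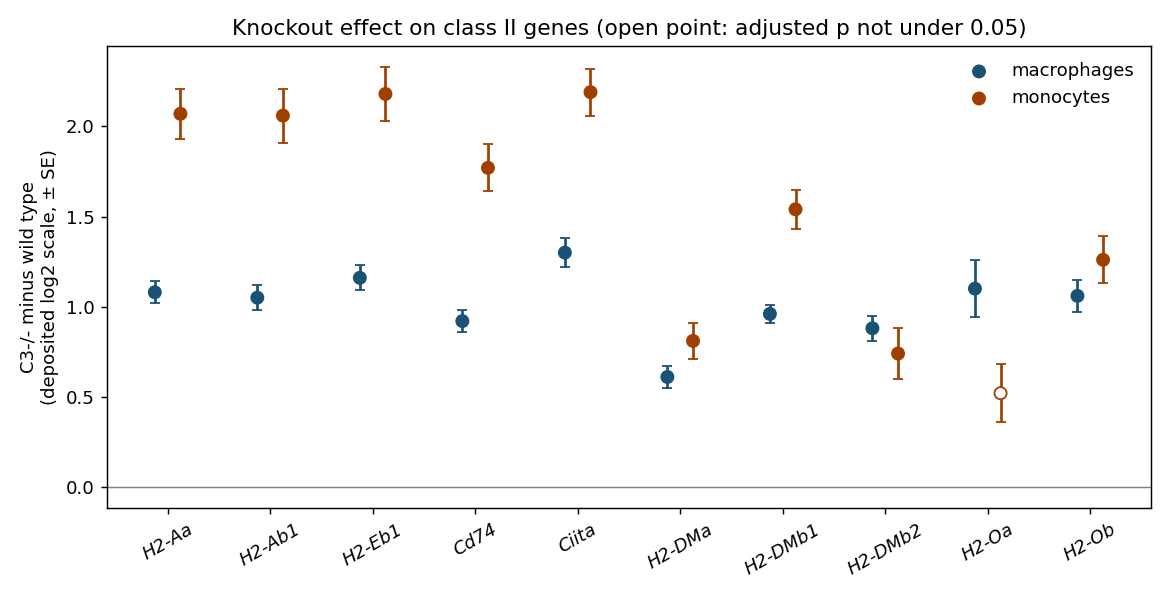
Difference between C3-/- and wild type on the deposited log2 scale with its SE for each class II gene, in macrophages and monocytes (n = 4 per group); filled points passed an adjusted p of 0.05. The monocyte points lie near 2 for the chains and Ciita (2.06 to 2.19) against 1.05 to 1.30 in macrophages, while those for H2-DMb2 lie at 0.74 and 0.88.

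The genotype effect (C3-/- against wild type) was compared between the 2 cell types as an interaction over all 16 libraries. For 5 members the effect was larger in monocytes, against 0.259% of 13134 genes. On the deposited log2 scale the macrophage effect minus the monocyte effect was -0.99 ± 0.16 SE for H2-Aa (limma adjusted p = 0.00845), -1.0 ± 0.17 for H2-Ab1 (adjusted p = 0.0126), -1.01 ± 0.18 for H2-Eb1 (adjusted p = 0.0163), -0.85 ± 0.16 for Cd74 (adjusted p = 0.0163) and -0.89 ± 0.17 for Ciita (adjusted p = 0.0186). Without the filter on low values, H2-Ab1, H2-Eb1 and Cd74 no longer passed (adjusted p = 0.0679, 0.0738 and 0.0873). Ciita did not pass without wild-type macrophage library 3 (adjusted p = 0.0521). H2-DMb1 differed by -0.59 ± 0.13 SE and did not pass (limma adjusted p = 0.0573), but passed with the mouse as a replicate block (adjusted p = 0.00717). The remaining 4 did not pass: H2-DMa at -0.20 ± 0.12, H2-DMb2 at 0.14 ± 0.16, H2-Ob at -0.21 ± 0.16 and H2-Oa at 0.58 ± 0.23 SE (limma adjusted p = 0.317 for H2-Oa, the smallest of the 4).

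Between the cell types of a genotype, macrophages had the higher class II levels. In wild type 9 of 10 members were higher in macrophages, against 31.7% of 12769 genes, from 1.84-fold for H2-DMa to 9.68-fold for H2-Eb1. The ranges of 9 members did not overlap, against 29.8% of genes without overlap and higher in macrophages. H2-Oa differed by 0.27 ± 0.18 SE and did not pass (limma adjusted p = 0.206). In C3-/- mice 9 of 10 were higher in macrophages, against 31.0% of 12772 genes, from 1.47-fold for H2-DMa to 3.16-fold for H2-Ob, and 9 did not overlap, against 28.6% of genes. Ciita was the member that did not pass there (0.18 ± 0.13 SE, limma adjusted p = 0.244), although it did with the mouse as a replicate block (adjusted p = 0.0213). For the chains, Cd74, H2-DMa, H2-DMb1 and H2-DMb2 the order of the group means was C3-/- macrophages, C3-/- monocytes, wild-type macrophages, wild-type monocytes, and only the middle pair overlapped. H2-Ob had wild-type macrophages above C3-/- monocytes, again with overlap. For Ciita the top pair overlapped and the rest were separate, and for H2-Oa the ranges overlapped in both lower steps.

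The members did not keep their proportions. Of 7 ratios of normalized reads taken within each library in both cell types, 14 tests in all, 10 passed at the smallest p that 4 against 4 libraries can give (exact two-sided permutation p = 0.0286, adjusted p = 0.0400). H2-Ab1 to H2-Aa was 2.44 in wild-type and 2.40 in C3-/- macrophages (exact permutation p = 0.257) and 2.57 and 2.52 in monocytes (exact permutation p = 0.629), the steadiest of the ratios. H2-Eb1 gained on H2-Aa, by 0.11 on the log2 scale in macrophages and 0.24 in monocytes. In each cell type this call was lost when certain single libraries were left out (adjusted exact permutation p = 0.0800). Cd74 fell behind H2-Aa, from 5.40 to 4.68 reads per H2-Aa read in macrophages and from 6.37 to 4.61 in monocytes. H2-DMa fell behind furthest, from 0.158 to 0.104 in macrophages and from 0.611 to 0.157 in monocytes. These 6 comparisons had no overlap between genotypes.

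H2-Ob gained on H2-DMa, from 0.0300 to 0.0453 in macrophages and from 0.0117 to 0.0211 in monocytes, without overlap. The macrophage call was lost when a C3-/- library was left out, whichever it was (adjusted exact permutation p = 0.0800). H2-DMb2 to H2-DMb1 went from 0.0745 to 0.0332 in monocytes, with no overlap, and from 0.0406 to 0.0384 in macrophages, with overlap (exact permutation p = 0.543). Its values carry the uncertain split of reads named above. The log2 ratio of H2-Aa to Ciita was 4.91 in wild-type and 4.56 in C3-/- macrophages, without overlap, and 3.72 and 3.64 in monocytes, with overlap (exact permutation p = 0.429). Its macrophage call was lost without wild-type library 1 or 2. In either genotype the macrophages held more H2-Aa per Ciita than the monocytes (lowest macrophage library 21.3 reads per read, highest monocyte library 14.9).

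**Figure D3:**
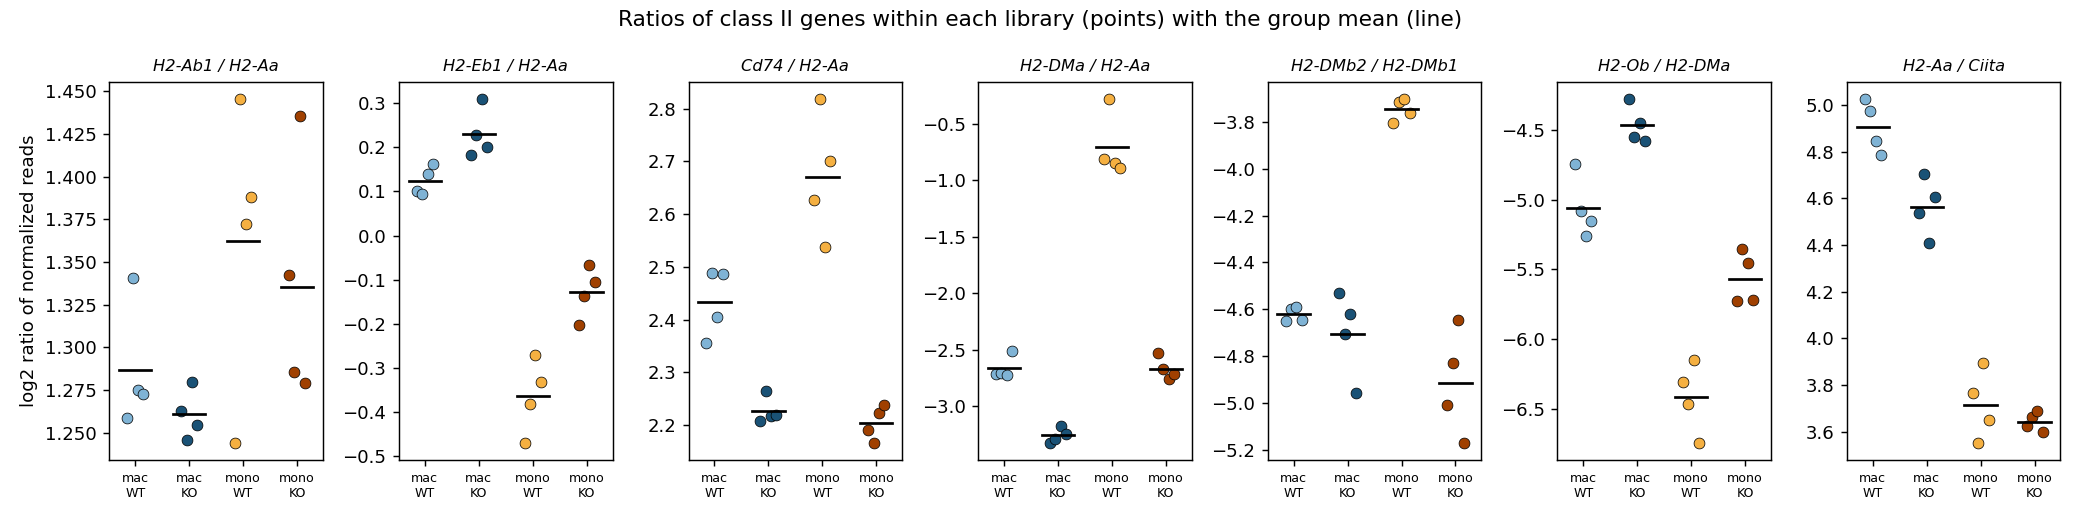
Log2 ratios of normalized reads of pairs of class II genes in each library, with points for libraries, a line at the group mean, and mac, mono, WT and KO as macrophages, monocytes, wild type and C3-/-. H2-DMa / H2-Aa falls from a mean of -0.71 to -2.67 in monocytes, while H2-Ab1 / H2-Aa overlaps between genotypes in both cell types.

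Within groups the members also moved together from library to library, each from 1 mouse. Mouse 3 gave the highest value of 9 of 10 members among wild-type macrophages and of 7 among wild-type monocytes, and mouse 8 gave the highest of 9 among C3-/- macrophages and of all 10 among C3-/- monocytes. Mouse 7 gave the lowest value of 9 members among C3-/- monocytes, and mouse 4 the lowest of 9 among wild-type macrophages. On deviations from the genotype means of the deposited values over 8 mice, all 45 pairs of members had a correlation above 0 in monocytes (median r 0.87) and 44 of 45 in macrophages (median r 0.60). Pairs among the 3 chains and Cd74 ran from 0.98 to 0.99 in monocytes and from 0.93 to 0.98 in macrophages. Values of a library share its size factor. The same correlations were not counted over pairs of other genes, so whether they are particular to the members was not tested.

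The covariation of the other 9 members with Ciita was tested in each cell type (18 relations, deviations from genotype means, n = 8 mice, exact permutation within genotype). The share of all genes that would pass with Ciita was not computed. In monocytes 6 of 9 passed on Pearson's r: Cd74 (r = 0.99, adjusted exact permutation p = 0.0234), H2-Aa (0.97), H2-Ab1, H2-Eb1 and H2-DMb1 (0.96 each) and H2-DMa (0.91). Spearman's rho was 1.00, 0.90, 0.93, 0.88, 0.90 and 0.83 in the same order of genes, and H2-DMa did not pass on rho (adjusted exact permutation p = 0.0529) while the other 5 did. Without the 2 mice farthest from the median Ciita value these r stayed between 0.81 and 0.99. H2-DMb2 did not pass on r (0.80, adjusted exact permutation p = 0.0521) and passed on rho (0.86, adjusted exact permutation p = 0.0339). H2-Ob (r = 0.54) and H2-Oa (r = 0.39) passed on neither.

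In macrophages 5 of 9 passed: H2-DMb1 (r = 0.90, rho 0.95), H2-DMa (0.89, rho 0.95), H2-Eb1 (0.87, rho 0.86), H2-Ab1 (0.78, rho 0.88) and H2-Aa (0.77, rho 0.83), with adjusted exact permutation p of 0.0352 for the H2-DM genes and 0.0455 for the chains. Cd74 did not pass on r (0.75, adjusted exact permutation p = 0.0817) and passed on rho (0.88, adjusted exact permutation p = 0.0312). Without the 2 mice farthest from the median Ciita value, r of H2-DMb1 and H2-DMa was 0.68 and that of the chains 0.48 to 0.54, so that the chain relations rested largely on those mice. On log2 normalized reads the 3 chains no longer passed (adjusted exact permutation p = 0.0531 to 0.0599). H2-Oa, H2-Ob and H2-DMb2 had r of 0.36, 0.46 and 0.71 and did not pass.

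**Figure D4:**
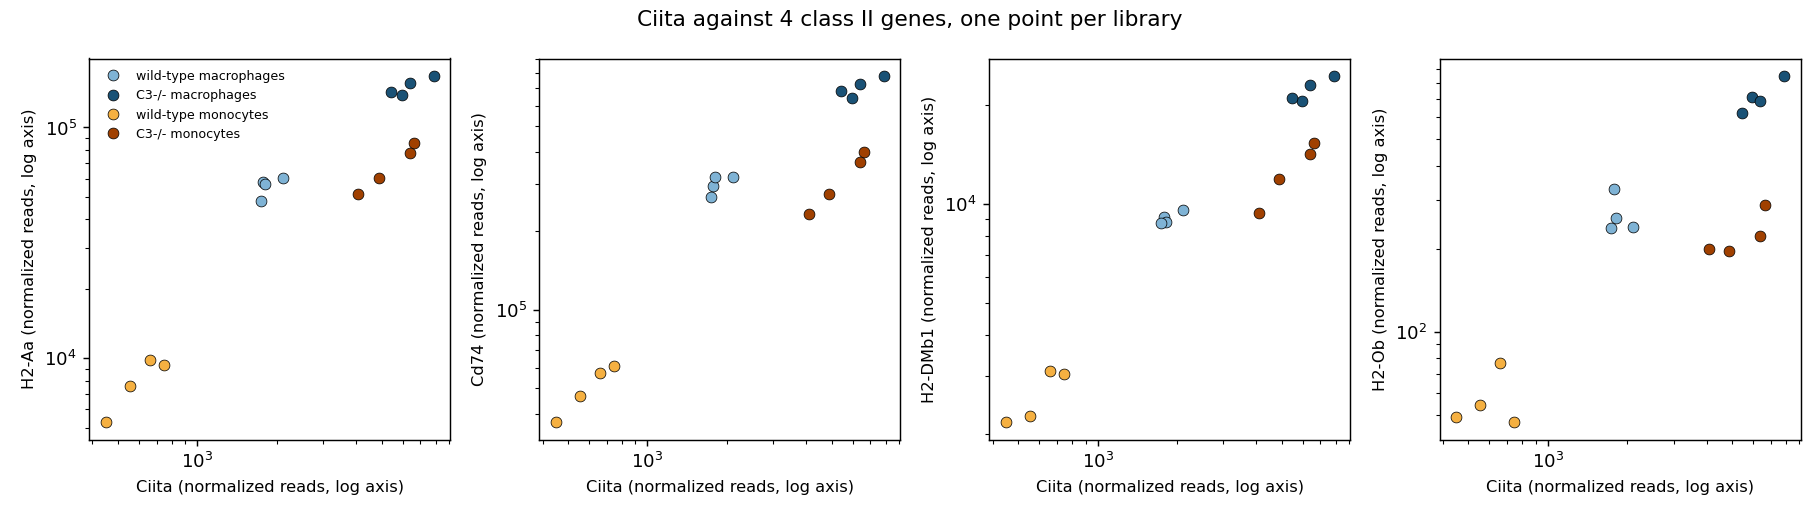
Ciita against H2-Aa, Cd74, H2-DMb1 and H2-Ob in normalized reads, both on log axes, with a point for each of the 16 libraries coloured by group. The groups form separate clusters, and within C3-/- monocytes H2-Aa goes from 51720 to 85777 while Ciita goes from 4083 to 6642.

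Between the macrophages and monocytes of a mouse, deviations from the group means had r from -0.01 for H2-Oa to 0.70 for H2-DMb1 (Spearman's rho 0.17 and 0.67). None of the 10 relations passed (n = 8 mice, smallest unadjusted exact permutation p = 0.111), and 0 had an unadjusted p under 0.05. Without the 2 farthest mice r of H2-Aa went from 0.36 to 0.83 and that of H2-Ob from 0.35 to -0.13.

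Genes around the members in the class II region were mostly level between genotypes. Of 19 neighbours found, 17 were tested. Over all genes tested, 2.57% were called higher in C3-/- macrophages and 1.40% in C3-/- monocytes. Tap2, a transporter subunit that supplies peptides to class I molecules, rose in C3-/- macrophages (0.21 ± 0.05 SE, limma adjusted p = 0.0466; 3368 ± 288 to 4136 ± 339) and was the only 1 to pass in either cell type. In monocytes it differed by 0.18 ± 0.08 SE (limma adjusted p = 0.289), where 0 of 17 passed with limma or voom and 4 had an unadjusted p under 0.05. The median difference of the neighbours was 0.04 in macrophages and 0.09 in monocytes. Brd2, which lies between H2-Oa and H2-DMa and overlaps the latter, differed by 0.04 ± 0.05 and 0.23 ± 0.07 SE (limma adjusted p = 0.734 and 0.0886).

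**Figure D5:**
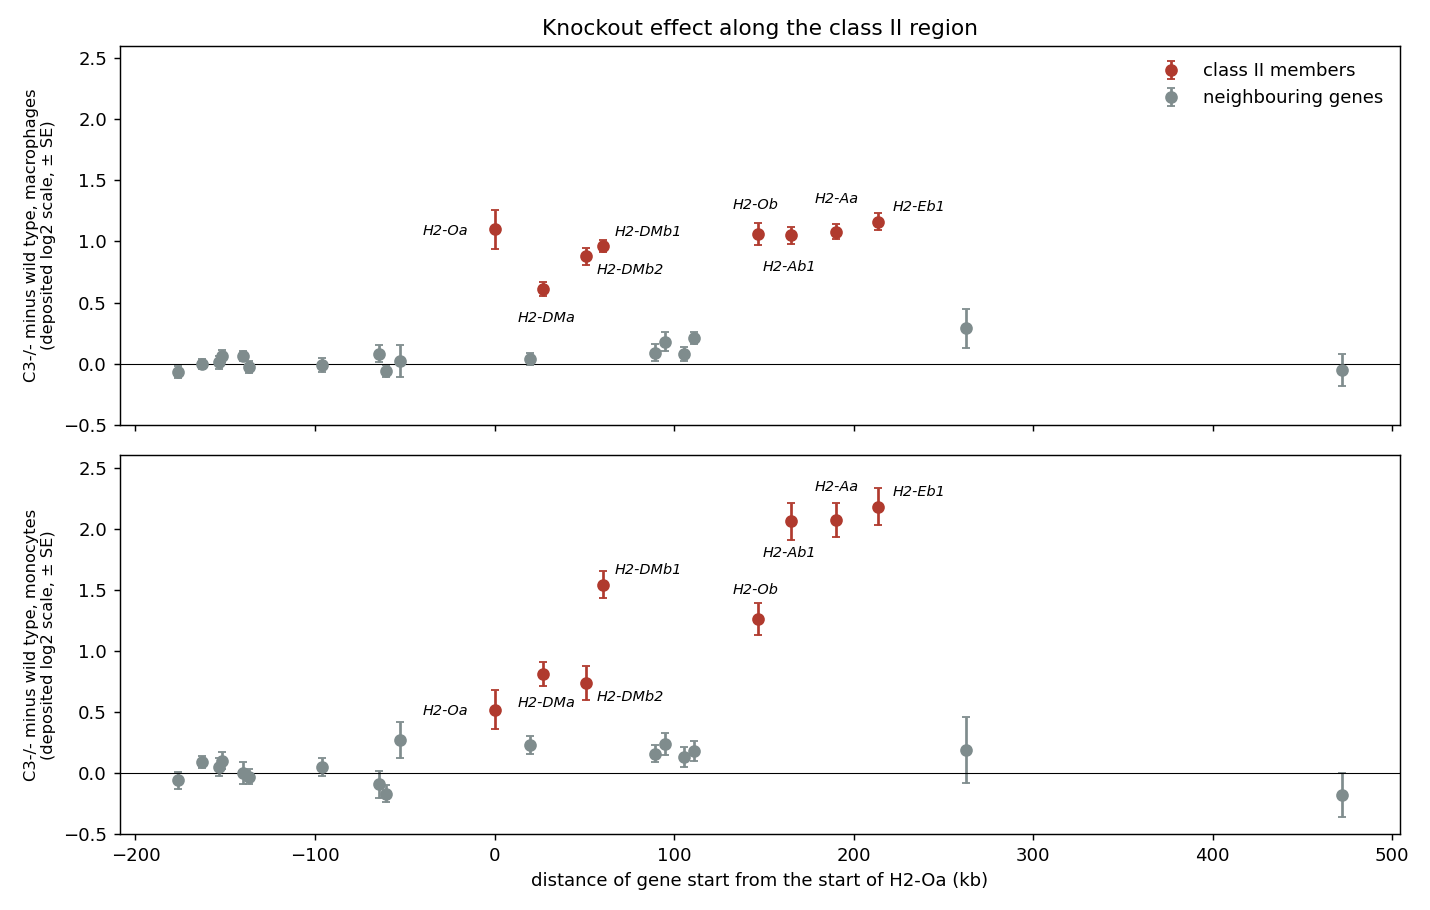
Difference between C3-/- and wild type (deposited log2 scale, ± SE, n = 4 per group) for the class II members and their neighbours, against the distance of each gene's start from that of H2-Oa in kb, for macrophages and monocytes. The members lie at 0.61 to 1.16 in macrophages and 0.52 to 2.18 in monocytes, and each of the 17 neighbours at 0.29 or less.

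Of the factors that feed class II transcription, 15 were tested. In C3-/- macrophages none passed with limma or with voom on recovered reads, and 3 had an unadjusted p under 0.05; Rfx5, a subunit of RFX, was nearest at 0.25 ± 0.07 SE (limma adjusted p = 0.0672). In C3-/- monocytes 2 of 15 rose, against 1.40% of all genes called higher. Irf1, an interferon-induced transcription factor that acts on a Ciita promoter, went from 5081 ± 812 to 9101 ± 2308 (0.60 ± 0.13 SE, limma adjusted p = 0.0335). Socs1, a feedback inhibitor of interferon signalling, went from 601 ± 81.6 to 1140 ± 339 (0.65 ± 0.14 SE, limma adjusted p = 0.0332). Both were lower in macrophages than in monocytes of either genotype, the reverse of the chain genes. The interferon-gamma receptor gene Ifngr1 did not pass in monocytes (-0.21 ± 0.06 SE, limma adjusted p = 0.0906). Rfx5 and Ifngr1 were picked after their values were seen.

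Of 8 genes for trimming the invariant chain and reducing antigens, 2 fell in C3-/- macrophages and none rose, against 3.13% of all genes called lower. Ctsd, the protease cathepsin D, went from 25081 ± 1400 to 15638 ± 2089 (-0.50 ± 0.06 SE, limma adjusted p = 0.000680) and Ctsb, cathepsin B, from 134894 ± 2950 to 102018 ± 10647 (-0.30 ± 0.05 SE, limma adjusted p = 0.00830). In monocytes 0 of 8 passed with limma or voom and 2 had an unadjusted p under 0.05, with Ctsd at -0.23 ± 0.07 SE (limma adjusted p = 0.0926). Of 6 genes of class II surface turnover and costimulation, none passed in macrophages with limma or voom (1 at an unadjusted p under 0.05) and Cd83, a surface protein that slows the removal of class II from the membrane, rose in monocytes. It went from 2673 ± 218 to 7649 ± 2654 (0.99 ± 0.15 SE, limma adjusted p = 0.00535), and in macrophages it was 0.48 ± 0.15 SE higher without passing (limma adjusted p = 0.130).

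Markers of other cells that carry class II were compared beside these results. The 7 B cell markers found summed to 58.3 to 105 normalized reads in wild-type and 138 to 214 in C3-/- macrophages, and to 70.6 to 177 and 117 to 201 in monocytes. Of these, 2 were tested, and Cd79b rose in C3-/- macrophages (51.5 ± 8.61 to 140 ± 26.8; 0.94 ± 0.12 SE, limma adjusted p = 0.000741). The defining markers Cd79a and Pax5 stayed at group means of 2.97 or less in all 4 groups, and Pax5 was at 0 in every C3-/- macrophage library. Of 11 dendritic cell markers, summed to 6513 to 7931 and 5211 to 6894 in macrophages and to 4449 to 5912 and 3630 to 4434 in monocytes (wild type and C3-/-), 9 were tested in macrophages and none of these passed with limma or voom, while 3 had an unadjusted p under 0.05. The sums are carried by Itgax. The 7 T and NK cell markers summed to at most 66.2 in macrophages and 416 in monocytes, and none of the 4 tested in macrophages and the 6 tested in monocytes passed between genotypes (1 in each at an unadjusted p under 0.05; 0 with voom).

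In C3-/- monocytes 9 dendritic cell markers were tested and 5 had an unadjusted p under 0.05. Of these Cd209a rose, and Itgax, which encodes CD11c, fell from 4421 ± 579 to 2649 ± 671 (-0.53 ± 0.12 SE, limma adjusted p = 0.0386; 1.92% of all genes were called lower). Cd209a encodes a C-type lectin found on dendritic cells that derive from monocytes. It was at 9.12 ± 5.62 in wild type (SD, n = 4) and at 128, 147, 621 and 790 in C3-/- monocytes of mice 6 to 9 (3.66 ± 0.50 SE, limma adjusted p = 0.00418), a call that was lost with voom on recovered reads (adjusted p = 0.133). Mice 8 and 9, which had the most Cd209a, also had the highest H2-Aa and Ciita. Flt3, a receptor of dendritic cells and their precursors, was at 85.8 ± 66.4 and 206 ± 43.7 and did not pass (limma adjusted p = 0.109). Xcr1, a receptor of type 1 dendritic cells, was at 19.3 to 32.7 in wild type and 43.4 to 74.2 in C3-/-, and Batf3, a transcription factor those cells need, had means of 73.7 ± 25.2 and 156 ± 61.4, and neither passed (limma adjusted p = 0.0703 and 0.128). Clec9a, another marker of those cells, was at 3.39 ± 2.04 and 9.39 ± 5.43 and was not tested. Nor was Siglech (0.977 ± 1.33 and 3.54 ± 3.63). The remaining tested markers had lower means in C3-/- monocytes and did not pass. They were Zbtb46 (48.6 ± 33.0 and 40.7 ± 12.0), Ccr7 (68.5 ± 46.0 and 45.5 ± 22.9), Dpp4 (532 ± 138 and 506 ± 24.8) and Cd207 (8.02 ± 9.04 and 7.02 ± 4.70). The median difference of the 9 tested was -0.02, against -0.01 over all genes. In macrophages Cd209a was at 0 to 1.69 in wild type and at 0.920 to 13.8 in C3-/-, and was not tested. Of the 3 markers at an unadjusted p under 0.05 there, Clec9a (6.77 ± 5.06 to 19.0 ± 4.15) and Dpp4 (63.9 ± 27.1 to 116 ± 30.5) were higher in C3-/-. Itgax was lower (6201 ± 596 to 4979 ± 577), and none of the 3 passed (limma adjusted p = 0.0714, 0.101 and 0.0795). The sort took CD11c- cells, a gate meant to leave out cells carrying CD11c. Itgax RNA was still read in all 4 groups, at means from 2649 (C3-/- monocytes) to 6201 (wild-type macrophages). The part of dendritic cells in the class II results was not tested.

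Of the macrophage markers, 3 of 9 fell in C3-/- macrophages, namely Mrc1 (-0.30), Apoe (-0.42) and Mertk (-0.51; limma adjusted p = 0.00567, 0.00929 and 0.0337), and of the monocyte markers Hp fell in C3-/- monocytes (-0.38, limma adjusted p = 0.00563). Over all genes tested, 3.13% were called lower in C3-/- macrophages and 1.92% in C3-/- monocytes. Adgre1, which encodes F4/80, and Ly6c2 did not pass between genotypes within their own cell type (-0.04 and -0.13, limma adjusted p = 0.761 and 0.647). In C3-/- monocytes 0 of 9 macrophage markers passed with limma or voom and 3 had an unadjusted p under 0.05. Of these, 2 had higher means in C3-/-: Mrc1 (329 ± 120 in wild type and 1383 ± 1062 in C3-/-) and Adgre1 (5929 ± 471 and 7348 ± 980). Mertk had a lower mean (591 ± 97.0 and 445 ± 127).

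Across the 16 libraries and 11434 genes compared, the profiles outside the 10 members most like the mean of H2-Aa, H2-Ab1 and H2-Eb1 were those of As3mt (Pearson's r 0.964), Rgs10 (0.951), Rnf219 (0.949), Trim68 (0.935) and Trit1 (0.933). Rgs10, a regulator of G protein signalling, was at 3260 ± 137 and 5007 ± 628 in wild-type and C3-/- macrophages and at 1166 ± 191 and 2575 ± 627 in monocytes. After the group means were taken out, the closest were Pdlim4 (0.877), Tmem126b (0.868), Ttc4 (0.863), Batf (0.862) and Irf1 (0.861). The first 5 follow differences that include those between groups, and the last 5 differences between libraries within groups. No gene was in both sets.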

How the data were processed

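A matrix with a log2 value per gene and library (16 libraries), and a table for each cell type comparing genotypes, were deposited by the authors. The submitters' processing notes name STAR 2.7.2b, DESeq2, bcl2fastq 2.19.0.316 and the build GRCm38, without saying what each was used for. Per the labels' protocols, libraries came from 5 ng of RNA with SMART-Seq v4. In the deposited tables the base mean is a signal (mean normalized reads), the Wald statistic is a score, and fold changes are log2; their p-values are the authors'. Table signs were turned to knockout minus wild type. The matrix held 0 columns of other samples.

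The log2 values followed a regularized logarithm, which draws the values of a gene together, those of abundant members included. Reads were recovered by inverting it with the deposited base mean: over the 20443 genes whose base mean was 1 or more, 82.5% of values came within 0.05 of whole reads (45.4% where the base mean exceeded 1000), and recovered means differed from it by under 1% for 99.7% of genes. The design foresaw log2 values, and the main test was limma 3.58.1 (R 4.3.3; trend, robust) on the deposited values, for genes with a linear value of at least 10 in at least 4 libraries, with Benjamini-Hochberg adjusted p under 0.05 as a call; the fit was tested on simulated data. Lengths and coordinates came from GENCODE (GRCm38), and levels per kilobase used the transcript numbered 201 of each gene. Ratios and covariation used exact permutation (Python 3.11.15, SciPy 1.17.1). No library copied another: chi-square per gene between libraries of a group was 10.3 to 45.9. The titles give both cell types of a mouse the same number, so libraries are paired by animal; correlations of their deviations ran from 0.031 to 0.417. Members and lists were chosen with earlier results of these data known. Named genes were all members, C3, up to 4 genes per pathway list with the smallest adjusted p among calls, and the 5 most like profiles of each kind; other names were chosen after their values were seen. Alternatives were filters, scaling, 1 fit of all libraries, the replicate block, leaving out each library, the authors' table, and voom on recovered reads, added after seeing the data. Each library is 1 cell type of 1 mouse. Some genes of the lists are not reported here.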

Additional observations from a re-analysis of the deposited data

Results flagged for a closer look

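For 5 genes the genotype effect (C3-/- against wild type) differed between macrophages and monocytes in the interaction test over 16 libraries. The macrophage effect minus the monocyte effect, on the deposited log2 scale, was -0.99 for H2-Aa, -1.0 for H2-Ab1, -1.01 for H2-Eb1, -0.85 for Cd74 and -0.89 for Ciita. Each effect was upward in both cell types and larger in monocytes. In none of 40 groups of 4 libraries, 10 genes in 4 groups, did a library stand apart from the others by Dixon's criterion.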

How the results depend on the processing

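All 10 members in macrophages and 9 in monocytes were called higher in C3-/- under every alternative fit run, apart from the authors' deposited table, where H2-Oa also passed in monocytes (0.84). Over these alternatives the highest adjusted p of a called member was 0.00776 (H2-Oa) in macrophages and 0.0417 (H2-DMb2) in monocytes. For the difference between cell types, 5 members were called, and 2 without the filter on low values; the cause was not tested. H2-DMb1 passed there with TMM scaling (adjusted p = 0.0402, over alternatives 0.00539 to 0.129), with voom on recovered reads (0.0330), with the replicate block (0.00717), and without wild-type monocyte library 3 (0.0469) or C3-/- monocyte library 7 (0.00539). With the replicate block, 251 genes were called for the difference in place of 81, and Ciita was called between cell types in C3-/- mice (adjusted p = 0.0213); of the calls on members, the block changed these 2 alone. Leaving out a library gave 48 to 125 genes for the difference, 458 to 656 in place of 717 in macrophages and 237 to 459 in place of 427 in monocytes. In monocytes 981 genes were called with all 16 libraries in 1 fit, which pools the spread, and 1329 in the authors' table. Some called ratios were lost with a library left out (adjusted exact permutation p = 0.0800). In macrophages H2-Eb1 to H2-Aa was lost without wild-type library 1 or 2 or C3-/- library 8. H2-Aa to Ciita was lost there without wild-type library 1 or 2, and H2-Ob to H2-DMa without C3-/- library 6, 7, 8 or 9. In monocytes H2-Eb1 to H2-Aa was lost without C3-/- library 8. The other called monocyte ratios kept an adjusted exact permutation p of 0.0444 or less. With a library left out, the log2 difference of H2-DMb2 to H2-DMb1 in macrophages ran from -0.14 to 0.00 and that of H2-Ab1 to H2-Aa in monocytes from -0.07 to 0.00; the sign turned without C3-/- library 9 and wild-type library 2, and neither ratio was called. H2-Aa to Ciita in monocytes passed on deposited log2 differences (-0.13, adjusted exact permutation p = 0.0364). TMM scaling moved libraries by -0.038 to 0.038. The planned count-model fits were not run, because the deposited values are log2 and not counts. Depth limits H2-Oa most, at group means of 33.0 to 139 normalized reads.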
